A study of Homo sapiens with 6 samples.

Results

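NEDD9 and 7 genes that belong to its scaffold family or encode direct binding partners were followed across 3 flow conditions, 8 of the 60591 genes in the count table. NEDD9 (also called HEF1 or CAS-L) was picked because its RNA was higher under flow in these same libraries. Its own values are therefore a description, without a test. The other genes were taken by family: the scaffolds BCAR1, EFS and CASS4, the scaffold-binding proteins BCAR3 and SH2D3C, and the adaptors CRK and CRKL. They too were listed with earlier results of these libraries known.

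CAS proteins are scaffolds without enzyme activity that sit at focal adhesions, the sites where integrins tie the cytoskeleton to the matrix. Focal adhesion kinase and Src-family kinases phosphorylate tyrosines in a stretch of the scaffold called the substrate domain. CRK and CRKL bind these phosphotyrosines and bring in exchange factors that switch on the small GTPases RAC and RAP1, which drive cell spreading and migration. Stretching of the BCAR1 substrate domain is a known way in which cells sense mechanical force, and NEDD9 is known for its part in the movement of breast cancer cells and, at the centrosome, in mitosis and the loss of cilia.

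MDA-MB-231 cells, from an established human line of triple-negative breast cancer, were used as a bone-homing variant in a 3D model of loading in bone metastasis. Static cells had no flow (0 mL/min), low flow cells had 1 mL/min and high flow cells had 15 mL/min, with 2 libraries of poly(A) RNA each and no other agent or genotype named. The duration of flow is not stated in the labels. Nothing in the labels says that the numbered libraries of a condition came from separate cultures. The p-values rest on the spread between libraries of the same condition, pooled over the conditions and drawn toward the spread of other genes. That spread may therefore be technical.

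Depth ran from 17822642 to 53279537 counts per library, and both static libraries were shallower than the other 4. Column names put the high flow libraries in another sequencing lane than the static and low flow libraries, and name their alignment files differently. High flow cannot be told apart from the lane or from whatever else the file names mark. The labels give the cell type as endothelial cancer cells. Of 11 endothelial markers, CDH5, VWF, EMCN, CLDN5 and ERG stayed at or under 0.435 CPM (counts scaled to library size) in every library, while TIE1, ESAM and ROBO4 lay between 24.3 and 56.9 CPM. The list summed to 107 to 135 CPM in static, 132 to 144 CPM in low flow and 148 to 150 CPM in high flow libraries, and its part in the results was not tested. VIM, AXL and CD44, which mark mesenchymal-type breast cancer lines such as this one, were at 478 CPM or more. That list of 6 genes summed to 6907 and 7042 CPM in static, 6514 and 7512 CPM in low flow and 8260 and 7888 CPM in high flow libraries. Of 8 luminal epithelial markers PGR was at 0 and CDH1 at most at 0.0563 CPM, but the list, KRT19 and ERBB2 included, summed to 114.5 and 113.5 CPM in static, 122 and 140 CPM in low flow and 168 and 137 CPM in high flow libraries. The part of either list in the results was not tested. Markers of leukocytes (7 genes) and of osteoblasts and osteocytes (7 genes, IBSP at 0) each summed to 5.74 CPM or less. In bulk RNA, fewer cells expressing a gene and less RNA per cell cannot be told apart.

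NEDD9 lies on chromosome 6, 11183298 to 11382348 on the minus strand of GRCh38, with 16 annotated transcripts. The RefSeq table used (GRCh38.p14) holds 3 start sites for it, of which 2 lie close together at the upstream end of the gene and the third lies inside it. The 250 bases before the outermost and before the inner start are shown because NEDD9 is the gene the results turn on, and because the gene-level counts do not tell which start was used. Both are written 5′ to 3′ on the strand of the gene, and capitals mark a match to the SMAD motif.
NEDD9 outer start, chr6:11382349-11382598: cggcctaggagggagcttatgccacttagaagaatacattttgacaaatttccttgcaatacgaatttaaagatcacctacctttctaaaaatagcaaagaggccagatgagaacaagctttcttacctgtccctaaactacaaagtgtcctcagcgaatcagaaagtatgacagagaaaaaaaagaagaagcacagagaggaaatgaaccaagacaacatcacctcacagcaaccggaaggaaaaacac
NEDD9 inner start, chr6:11232669-11232918: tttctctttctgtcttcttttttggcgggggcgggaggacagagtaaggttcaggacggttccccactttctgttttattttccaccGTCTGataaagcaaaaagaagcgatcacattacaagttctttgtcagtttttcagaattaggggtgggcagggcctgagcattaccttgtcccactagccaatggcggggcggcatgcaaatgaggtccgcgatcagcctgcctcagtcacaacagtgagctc
On both strands these windows were searched for the AP-1 motif TGANTCA, the TEAD motif GGAATG and the SMAD motif CAGAC. The outer window held none of these letters. The inner window held 1 SMAD match, read on this strand as GTCTG and starting at position -163 from the start site, and no AP-1 or TEAD match, so no matches overlapped. Among 34943 RefSeq windows of the same length, 6.59% held the AP-1 letters, 11.89% the TEAD letters and 38.01% the SMAD letters. A match of letters is not a bound site. Windows were found for 7 of the 8 genes, all but CASS4.

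NEDD9 RNA was lowest without flow and highest at the higher flow rate. Its level was 5.51 and 6.69 CPM in the static libraries, 23.1 and 14.9 CPM under low flow and 46.2 and 36.1 CPM under high flow, scaled by the trimmed mean of M values (TMM). The groups did not overlap, and each low flow library lay above both static libraries and below both high flow libraries. Group means were 6.10 ± 0.835 CPM, 19.0 ± 5.78 CPM and 41.2 ± 7.17 CPM (SD, n = 2). The raw counts behind them were 100 and 154 in static, 1052 and 718 in low flow and 1976 and 1923 in high flow, so the static level rests on 254 counts in all. As a description, NEDD9 was 3.09-fold higher under low flow than in static cells (log2 fold change 1.63, standard error (SE) 0.25). It was 6.70-fold higher under high flow (log2 fold change 2.74, SE 0.25). High flow exceeded low flow 2.17-fold (log2 fold change 1.11, SE 0.21). Among the 15524 genes that averaged 1 CPM or more, ordered by log2 fold change, NEDD9 stood 16th from the top for low flow against static, 4th for high flow against static and 21st for high flow against low flow. An antisense gene, AL139807.1, overlaps 53 bases of NEDD9 exons and had at most 3 counts in any library.

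BCAR1 (p130Cas), the founding member of the family and its most abundant scaffold here, differed less between conditions. It lies on chromosome 16, 75228187 to 75268053, minus strand. BCAR1 stood at 114 and 103 CPM in static, 114 and 112 CPM in low flow and 146 and 128 CPM in high flow libraries. Low flow and static overlapped, and both high flow libraries lay above the other 4. From static to low flow the log2 fold change was 0.06 (95% interval -0.15 to 0.27, adjusted p = 0.768, edgeR quasi-likelihood test with Benjamini-Hochberg adjustment over 20676 genes). Under high flow BCAR1 rose by 0.34 on the log2 scale, or 1.27-fold (SE 0.10, adjusted p = 0.0314, same test). That call ended with offsets for GC content and gene length, which put the log2 fold change at 0.01 (adjusted p = 0.941). The longest annotated transcript of BCAR1 has a GC content of 63.13% against 47.32% for that of NEDD9. Over 14975 genes the log2 fold change of high flow against static was correlated with this GC content (Spearman 0.405, a description over genes that share libraries and lanes). With the same offsets the log2 fold change of NEDD9 under high flow was 2.67. The BCAR1 call also ended without static replicate 2 (adjusted p = 0.230), without high flow replicate 1 (0.326) or without high flow replicate 2 (0.0590), by the same test. High flow exceeded low flow by a log2 of 0.28 (95% interval 0.07 to 0.49, adjusted p = 0.368), and by 0.08 with the offsets. The correlation of log2 fold change with GC content was larger in that comparison (Spearman 0.595). In low flow against static, which does not involve the high flow libraries, it was 0.0909. An annotated transcript on the same strand, AC009078.3, covers 788 bases of BCAR1 exons, and its counts came to 2.37% to 4.71% of those of BCAR1.

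The remaining scaffolds were scarce or undetected. EFS (Sin), a scaffold on chromosome 14, 23356402 to 23365752, had 0 counts in all 6 libraries. A count of 0 allows up to 3 counts, or 0.165 CPM in the shallowest and 0.0563 CPM in the deepest library, counting error only. CASS4 (HEPL), on chromosome 20, 56412112 to 56460387, had 11 and 25 counts in static, 45 and 16 in low flow and 13 and 18 in high flow libraries. These are 0.606 and 1.09 CPM, 0.988 and 0.333 CPM, and 0.304 and 0.338 CPM. Low flow spanned most of the static range, and both high flow libraries lay below both static ones. The log2 fold change of CASS4 was -0.39 for low flow (adjusted p = 0.680) and -1.41 for high flow (SE 0.53, adjusted p = 0.0843, edgeR), both against static. In 4 of 12 alternative analyses the high flow difference passed, with adjusted p from 0.0181 to 0.0367. High flow against low flow gave -1.02 (adjusted p = 0.533).

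**Figure D1:**
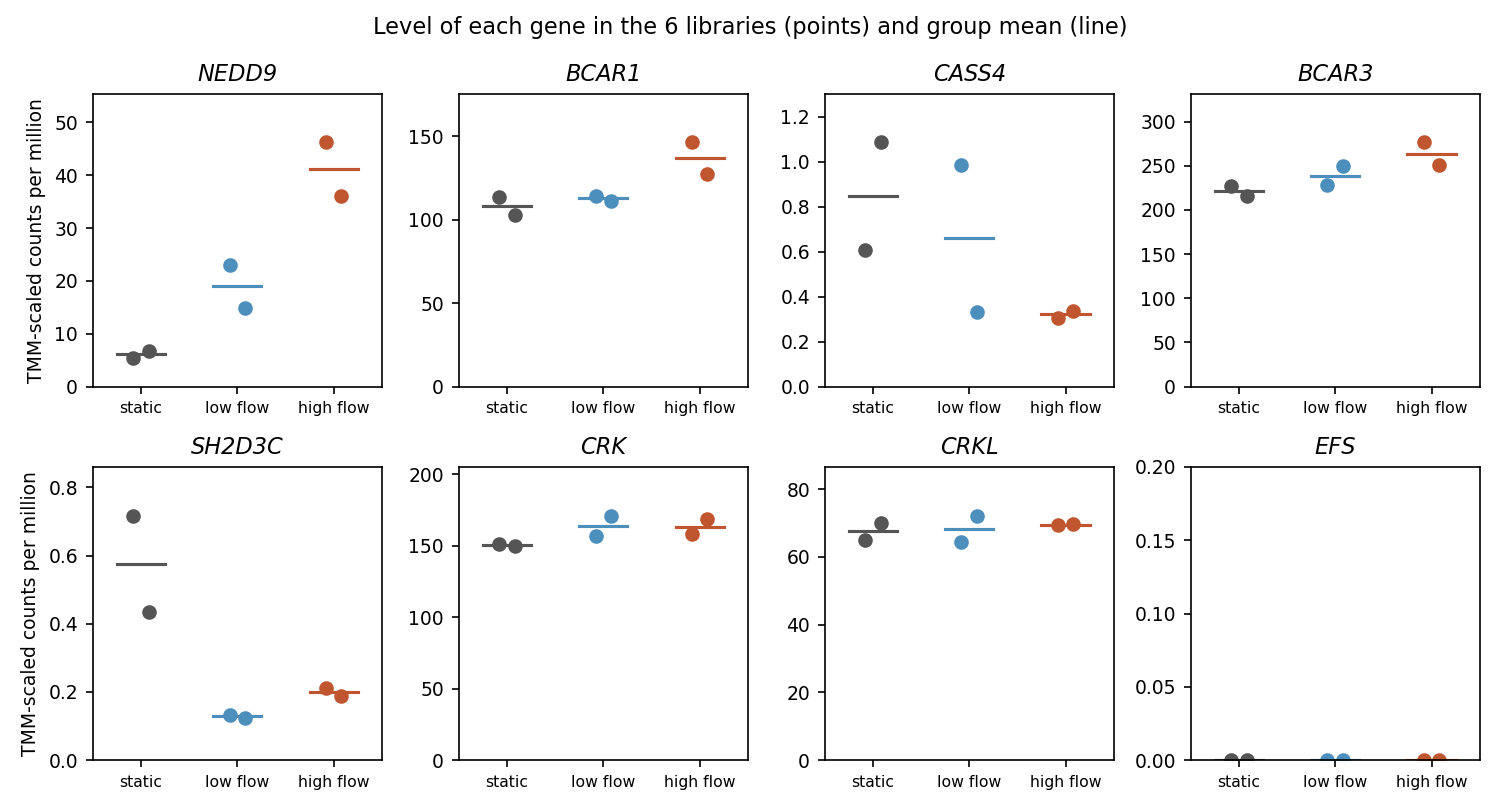
Level of each of the 8 genes in TMM-scaled CPM (vertical axes, each from 0 and with its own range) in the static, low flow and high flow libraries. Points are single libraries and lines are means of 2; NEDD9 lies at 5.51 and 6.69 CPM in static and at 46.2 and 36.1 CPM in high flow libraries, CRK lies between 150 and 171 CPM throughout, and EFS is at 0 in all.

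BCAR3 and SH2D3C belong to the NSP family, whose members grip the C-terminal end of CAS scaffolds and carry an SH2 domain. BCAR3, first found in a screen for resistance to antiestrogens, lies on chromosome 1, 93561786 to 93847150. BCAR3 was abundant, at 227 and 216 CPM in static, 228 and 249 CPM in low flow and 277 and 251 CPM in high flow libraries. The 3 groups did not overlap, but neither difference from static passed the test. Its log2 fold change was 0.11 under low flow (95% interval -0.10 to 0.32, adjusted p = 0.546) and 0.25 under high flow (95% interval 0.04 to 0.46, adjusted p = 0.0957, edgeR). High flow against low flow gave 0.14 (adjusted p = 0.670).

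SH2D3C (Chat, or SHEP1), on chromosome 9, 127738317 to 127778741, was scarce. It had 13 and 10 counts in the 2 shallow static libraries, 6 and 6 in low flow and 9 and 10 in high flow libraries. Scaled for depth these are 0.717 and 0.435 CPM, 0.132 and 0.125 CPM, and 0.211 and 0.188 CPM, so both static libraries lay above the other 4. SH2D3C passed the expression filter only through the static libraries. A gene that enters the fit in this way had to be higher in static, so its differences are given without a test: log2 fold changes of -2.12 (SE 0.59) for low flow and -1.50 (SE 0.55) for high flow against static, and 0.62 (SE 0.61) for high flow against low flow. SH2D3A, the other NSP gene, was higher by a log2 of 0.65 under high flow (static 1.32 and 1.09 CPM, high flow 1.94 and 1.82 CPM) and did not pass.

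CRK and CRKL, the adaptors that read phosphorylated CAS scaffolds, did not pass the test in any comparison. CRK, on chromosome 17, 1420689 to 1463162, measured 151 and 150 CPM in static, 157 and 171 CPM in low flow and 158 and 168 CPM in high flow libraries. Its log2 fold change was 0.12 under both flow rates, with 95% intervals of -0.08 to 0.32 at either rate and adjusted p of 0.473 and 0.444 (edgeR). CRKL, on chromosome 22, 20917426 to 20953749, measured 65.1 and 70.1 CPM, 64.4 and 72.1 CPM, and 69.3 and 69.5 CPM in the same order. The 3 groups overlapped. CRKL's log2 fold change was 0.01 under low flow (95% interval -0.19 to 0.22, adjusted p = 0.957) and 0.04 under high flow (95% interval -0.17 to 0.25, adjusted p = 0.833). From low to high flow CRK differed by -0.01 (adjusted p = 0.993) and CRKL by 0.03 (adjusted p = 0.959). The intervals against static leave room for log2 differences of up to 0.32 in CRK and 0.25 in CRKL.

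**Figure D2:**
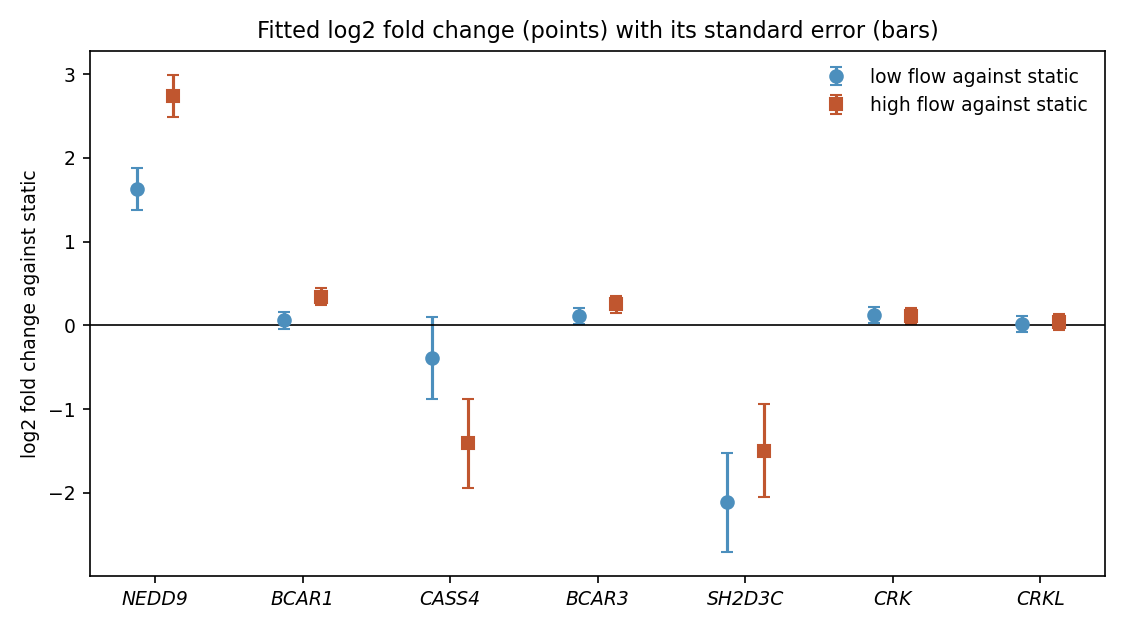
Fitted log2 fold change (vertical axis) of the 7 tested genes for low flow (circles) and high flow (squares), each against static, with bars of 1 standard error. NEDD9 stands at 1.63 and 2.74, BCAR1, BCAR3, CRK and CRKL lie between 0.01 and 0.34, and the scarce CASS4 and SH2D3C lie below 0 with wide bars.

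NEDD9, picked on these comparisons, and SH2D3C, admitted by its static level, are left out of the counts of calls, which leaves 5 tested genes. In low flow against static edgeR called 0 of the 5, with 0 at an unadjusted p under 0.05, where 6.74% of all 20676 genes were called. DESeq2 also called 0 of the 5 there, but gave CASS4 no adjusted p. For high flow against static edgeR called 1, BCAR1, where 13.9% of all genes were called. BCAR1, BCAR3 and CASS4 had an unadjusted p under 0.05 there, and DESeq2 called BCAR1 alone. Between the flow rates, where 0.334% of all genes were called, edgeR called 0 of the 5, with BCAR1 alone at an unadjusted p under 0.05 and 0 by DESeq2. Of all 20676 genes, 4853, 6074 and 1990 had an unadjusted p under 0.05 in the 3 comparisons in this order, and DESeq2 called 1661, 2760 and 116. All 5 were listed with earlier results known, and nothing is read from these counts. The median log2 fold change of all genes tested was 0.01, 0.00 and 0.01 in the 3 comparisons.

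Levels of different genes were set side by side as TPM, counts per exon length scaled to the same total in each library. CRK (100, 116 and 110 TPM on average in static, low flow and high flow) and BCAR3 (88.2, 101 and 106 TPM) were the highest, and their ranges overlapped in each condition. CRKL (34.6, 37.1 and 36.1 TPM) and BCAR1 (32.3, 35.5 and 41.2 TPM) came next and overlapped in static and low flow, while under high flow both BCAR1 libraries lay above both CRKL libraries. NEDD9 followed at 1.60, 5.24 and 11.0 TPM, above CASS4 (0.448, 0.367 and 0.175 TPM) in every library. SH2D3C averaged 0.342, 0.0794 and 0.118 TPM, and overlapped CASS4 in static.

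BCAR1 remained the main CAS scaffold at every flow rate, while NEDD9 made up more of the total under flow. The 4 scaffolds together came to 37.7 and 30.9 TPM in static, 40.8 and 41.4 TPM in low flow and 55.4 and 49.3 TPM in high flow libraries. NEDD9's share of that sum was 4.08% and 5.37% in static, 15.0% and 10.5% in low flow and 21.8% and 20.0% in high flow libraries. Shares did not overlap between conditions, with means of 4.72%, 12.8% and 20.9%. Put as a ratio of TPM, BCAR1 exceeded NEDD9 23.3-fold and 17.3-fold in static libraries and 3.57-fold and 3.99-fold in high flow libraries. The ratio was 5.58 and 8.44 in low flow libraries. With the longest annotated transcript in place of all exons as the length, the mean shares were 5.02%, 13.5% and 22.0%. The share follows from NEDD9's own values and is no separate evidence.

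**Figure D3:**
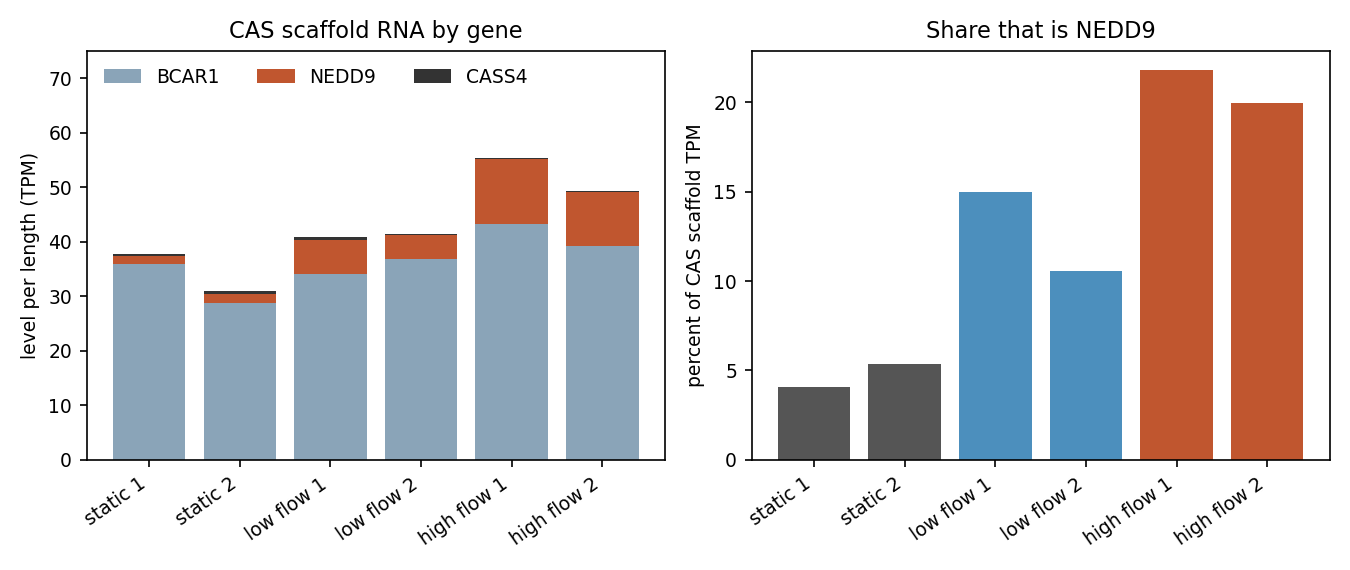
Left, level per length (TPM) of BCAR1, NEDD9 and CASS4 stacked for each library, with EFS at 0. Right, the percentage of that sum that is NEDD9, from 4.08% and 5.37% in static to 21.8% and 20.0% in high flow libraries; bars are single libraries and start at 0.

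The genes whose pattern over the 6 libraries was most like that of NEDD9 were sought among the 15523 other genes that averaged 1 CPM or more. Likeness was the root mean square difference of log2 CPM after centring each gene on its mean, so a small value means a similar rise in size as well as shape. AC131009.4 was nearest (0.37), followed by SMAD7 (0.42), AC037198.1 (0.43), EDN1 (0.44) and COL1A1 (0.46). Chosen for their pattern, these genes get no test. AC131009.4 reached at most 4.64 CPM and AC037198.1 at most 2.01 CPM. SMAD7, an inhibitor of TGF-beta receptor signalling, measured 42.0 and 43.7 CPM in static, 101 and 65.5 CPM in low flow and 152 and 135 CPM in high flow libraries. EDN1, which encodes the peptide endothelin-1, measured 6.17 and 5.61 CPM, 12.2 and 7.73 CPM, and 22.4 and 21.1 CPM in that order. COL1A1, a chain of type I collagen, measured 11.7 and 12.7 CPM, 22.3 and 17.9 CPM, and 45.0 and 38.0 CPM. In SMAD7, EDN1 and COL1A1, as in NEDD9, the first low flow library was above the second. That order counts toward the likeness by which the genes were chosen and is no separate evidence.

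Of 52 genes listed around the CAS scaffolds, 51 could be tested (the kinase LCK was too low). In low flow against static 6 were called, 2 higher and 4 lower, or 11.8% against 6.74% of all genes. For high flow against static 15 were called, 13 higher and 2 lower, or 29.4% against 13.9% of all genes. Both comparisons share the static libraries. Between the flow rates 1 was called, or 1.96% against 0.334%. The lists' medians were close to those of all genes: 0.04, 0.05 and 0.07 on the log2 scale. The high flow calls were sensitive to the libraries and to GC content. Each removal of a library given in this paragraph also lowered the number of calls over all genes, so fewer calls there are not particular to this list. With GC and length offsets 8 were called, 5 higher and 3 lower, and 6 of them were among the 15. Over all genes the offsets gave 2190 high flow calls, against 2878 without them. In low flow against static the offsets gave 1 higher and 5 lower. Without high flow replicate 1 there were 2 high flow calls, ABL2 and AJUBA, so the other 13 genes named below for high flow lost the call there. Without high flow replicate 2 there were 8, and without static replicate 2 there were 5. In low flow against static the count was 3 without static replicate 1, and 1 without static replicate 2 or without low flow replicate 2.

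Among the kinases that phosphorylate CAS scaffolds, 3 of 9 rose under high flow and none fell, or 33.3% called where 13.9% of all genes were. ABL2 (Arg), which phosphorylates CAS scaffolds and adaptors, measured 188 and 225 CPM in static, 258 and 221 CPM in low flow and 312 and 339 CPM in high flow libraries. Its rise under high flow was 1.58-fold (log2 fold change 0.66, SE 0.11, adjusted p = 0.00135, edgeR), and it passed in all 12 alternative analyses. SRC rose 1.37-fold (24.2 and 20.9 CPM to 31.5 and 30.3 CPM, adjusted p = 0.0260), and its relative ABL1 rose 1.26-fold (adjusted p = 0.0260). Both lost the call with the GC and length offsets (adjusted p = 0.214 and 0.503). PTK2, which encodes focal adhesion kinase, measured 190 and 189 CPM in static, 211 and 233 CPM in low flow and 225 and 232 CPM in high flow libraries. Both flow conditions lay above static, but the log2 differences of 0.23 and 0.26 did not pass (adjusted p = 0.158 and 0.0707, edgeR). The high flow difference of PTK2 passed in 2 of 12 alternatives, DESeq2 and no expression filter. DESeq2 called 4 of the 9 kinases under high flow. In low flow against static, where 6.74% of all genes were called, edgeR called 0 of the 9 kinases, with 1 at an unadjusted p under 0.05 and 0 by DESeq2. The kinases' median log2 fold change was 0.07 under low flow and 0.26 under high flow.

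Downstream of the scaffolds, RAP1B fell under both flow rates, and the exchange factor RAPGEF1 rose under high flow. RAP1B, 1 of the 2 RAP1 GTPases that this pathway switches on, measured 90.6 and 104 CPM in static, 71.3 and 66.3 CPM in low flow and 64.8 and 65.8 CPM in high flow libraries. It fell by 0.50 on the log2 scale under low flow (SE 0.10, adjusted p = 0.00818) and by 0.58 under high flow (SE 0.10, adjusted p = 0.00164, edgeR). The low flow call ended without static replicate 2 or low flow replicate 2, and the high flow call without high flow replicate 1 (adjusted p = 0.0538). RAPGEF1, the exchange factor for RAP1 that CRK carries, rose 1.24-fold under high flow (53.9 and 57.0 CPM to 71.6 and 65.8 CPM, adjusted p = 0.0424), and with the offsets its log2 fold change was 0.07 (adjusted p = 0.620). DOCK1 (DOCK180), the exchange factor for RAC, was at 115 and 124 CPM in static, 136 and 146 CPM in low flow and 139 and 138 CPM in high flow libraries, and did not pass (adjusted p = 0.134 and 0.146). ELMO3, from the family of DOCK1 cofactors, rose 1.73-fold under high flow from 2.43 and 2.17 CPM (adjusted p = 0.0250). NCK1, an adaptor with an SH2 domain, fell by 0.39 on the log2 scale under high flow (adjusted p = 0.0357). ELMO3 and NCK1 both lost the call with the offsets. In all, 2 of 14 genes of this list rose and 2 fell under high flow, which is 28.6% called where 13.9% of all genes were. Under low flow 1 fell, or 7.14% where 6.74% of all genes were called, a share near the background. The median log2 fold changes were 0.02 and 0.03.

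No phosphatase in the list passed. PTPN12 (PTP-PEST), which removes phosphate from CAS scaffolds, was at 168 and 192 CPM in static, 179 and 187 CPM in low flow and 169 and 170 CPM in high flow libraries. Both flow groups overlapped static, and both high flow libraries lay below both low flow libraries. Of PTPN12, PTPN1, PTPN11 and the Src-inhibiting kinase CSK, edgeR called 0 in each comparison, with 0 at an unadjusted p under 0.05 and 0 by DESeq2. Of all genes, edgeR called 6.74% for low flow and 13.9% for high flow against static, and 0.334% between the flow rates. Beside these shares a list of 4 genes is too short for its lack of calls to be read.

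Focal adhesion partners gave 5 of 14 genes higher and 0 lower under high flow, and 2 higher and 0 lower under low flow. That is 35.7% called where 13.9% of all genes were, and 14.3% where 6.74% were. With the GC and length offsets 3 of the 5 stayed called and GIT1, another member, was called lower (log2 fold change -0.26, adjusted p = 0.0419), named after its values were seen. TNS3, a tensin that links integrins to actin, measured 147 and 137 CPM in static, 185 and 231 CPM in low flow and 237 and 215 CPM in high flow libraries. TNS3 rose 1.47-fold under low flow (adjusted p = 0.00882) and 1.59-fold under high flow (adjusted p = 0.00119, edgeR). TLN1, which encodes talin, the protein that activates integrins, measured 339 and 380 CPM, 443 and 527 CPM, and 550 and 520 CPM in the same order. TLN1 rose 1.35-fold under low flow (adjusted p = 0.0238) and 1.49-fold under high flow (adjusted p = 0.00278). Under low flow its call ended in 7 of 12 alternatives, the GC and length offsets among them, and the low flow call of TNS3 ended without static replicate 2 or low flow replicate 2. Without high flow replicate 1 the high flow calls of TNS3 (adjusted p = 0.0507) and TLN1 (0.0720) ended too.
PXN (paxillin), a main adaptor of focal adhesions, rose 1.28-fold under high flow (238 and 212 CPM to 291 and 285 CPM, adjusted p = 0.0279). Its relative TGFB1I1 (Hic-5) rose 1.47-fold (adjusted p = 0.00601) and ZYX (zyxin), recruited to adhesions under tension, rose 1.34-fold (adjusted p = 0.0110). PXN and ZYX lost the call with the offsets (adjusted p = 0.488 and 0.186), and TGFB1I1 kept it there but lost it without static replicate 2 or without high flow replicate 1 (adjusted p of up to 0.112). The list's median log2 fold change was 0.08 under low flow and 0.29 under high flow.

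**Figure D4:**
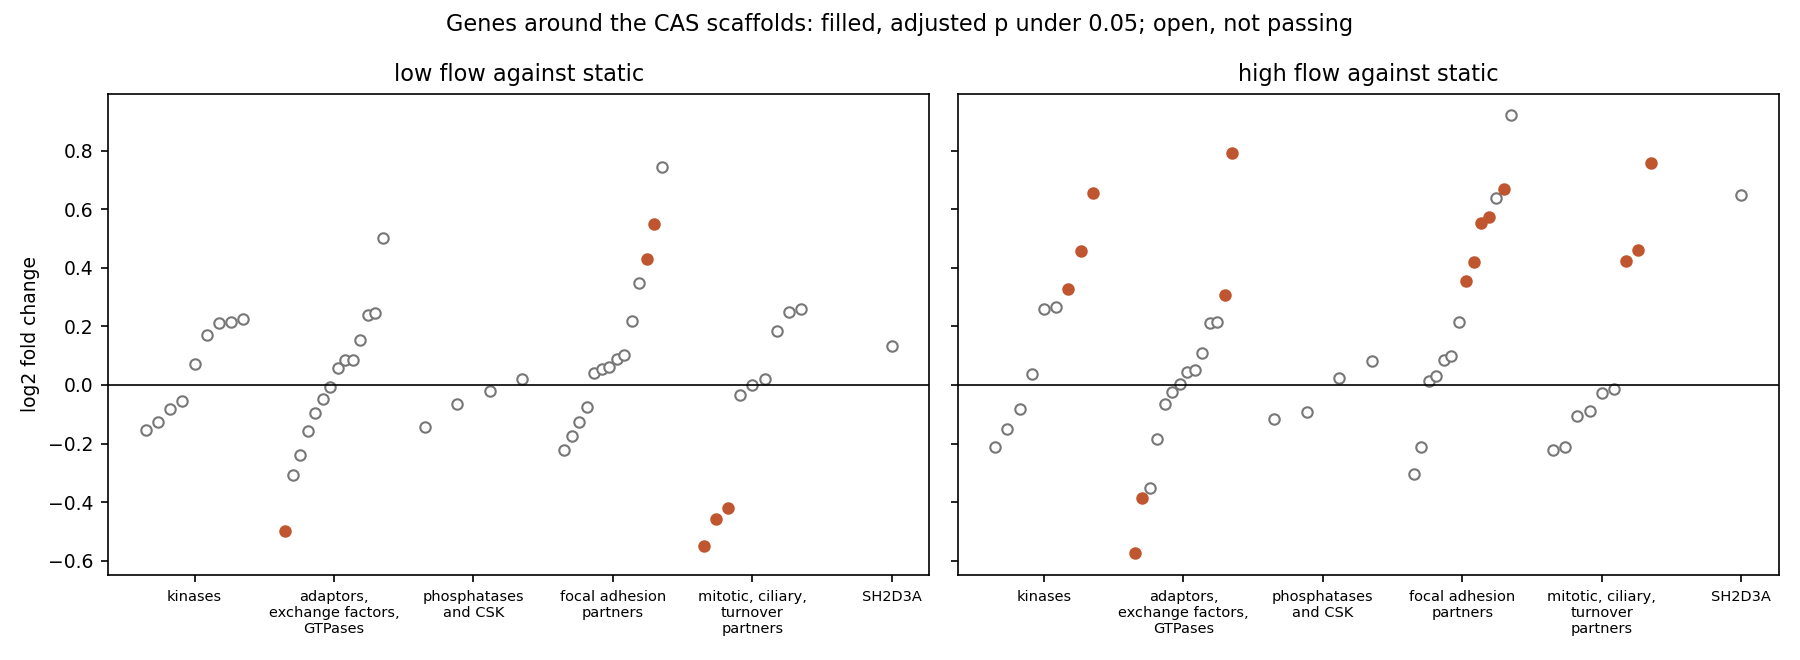
Log2 fold change (vertical axis) of the 51 tested genes around the CAS scaffolds, by list, for low flow (left) and high flow (right) against static. Filled points have an adjusted p under 0.05 and open points do not; under low flow 2 filled points lie above 0 and 4 below, and under high flow 13 lie above and 2 below.

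Among the partners of NEDD9 outside adhesions, 3 of 9 fell under low flow and 3 others rose under high flow. These are 33.3% of the list in each case, where 6.74% and 13.9% of all genes were called. Those that fell were PLK1, a mitotic kinase, by 0.55 on the log2 scale (64.1 and 53.5 CPM to 40.1 and 40.1 CPM, adjusted p = 0.00681), TPX2, the spindle activator of Aurora A, by 0.46 (adjusted p = 0.0135), and AURKA by 0.42 (adjusted p = 0.0221, edgeR). AURKA encodes Aurora A, the mitotic kinase that NEDD9 binds and activates. AURKA measured 70.6 and 64.5 CPM in static, 52.4 and 48.5 CPM in low flow and 54.1 and 61.5 CPM in high flow libraries. Under high flow it did not pass (log2 fold change -0.22, adjusted p = 0.155). Between the flow rates the log2 differences of AURKA, PLK1 and TPX2 were 0.20, 0.46 and 0.24, and none passed (adjusted p = 0.561, 0.0717 and 0.437, edgeR). The low flow call of AURKA ended without static replicate 1, static replicate 2 or low flow replicate 2, that of PLK1 without static replicate 1, and that of TPX2 without static replicate 2 or low flow replicate 2.
AJUBA, HDAC6 and FZR1 were those that rose under high flow. AJUBA, a LIM-domain protein of cell junctions and centrosomes that also helps activate Aurora A, measured 107 and 98.8 CPM in static, 132 and 114 CPM in low flow and 165 and 183 CPM in high flow libraries. AJUBA rose 1.69-fold against static (log2 fold change 0.76, SE 0.10, adjusted p = 0.000279) and passed in all 12 alternatives. Against low flow it rose 1.41-fold (adjusted p = 0.0414), a call that ended in 8 of 12 alternatives. HDAC6, the tubulin deacetylase that acts in cilium loss, rose 1.34-fold (adjusted p = 0.0133, edgeR). FZR1, which directs the anaphase-promoting complex, rose 1.38-fold (adjusted p = 0.0112, edgeR). Both ended with the offsets (adjusted p = 0.144 and 0.208). The list's median log2 fold change was 0.00 under low flow and -0.03 under high flow.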

How the data were processed

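The authors deposited a table of raw read counts by gene symbol with a column for each library. STAR, featureCounts and hg38 appear in the submitters' processing notes. Their versions, settings and annotation are not given in the sources used here. Reads of genes that overlap on the same strand may be shared or split. Each column was matched to its sample by the column name in the labels.

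Differences in counts were tested two-sided in R 4.3.3 by edgeR 4.0.16 (quasi-likelihood), with TMM normalization, robust dispersion and all 6 libraries in 1 fit by flow group (3 residual degrees of freedom). Of all genes, 20676 passed the default expression filter (minimum count 10), among them 7 of the 8 followed. Benjamini-Hochberg adjustment ran over all of them in each comparison, with a threshold of 0.05. SE came from the test statistic. CPM uses TMM factors. TPM uses exon length from GENCODE 29 (55101 symbols matched) on GRCh38. Positions count from 1. Log2 CPM for likeness had a prior count of 2. Promoter windows are from RefSeq.

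The 8 genes and all lists were chosen with earlier results of these data known. Named were the 8 genes, the 5 most like NEDD9, PTK2, SRC, DOCK1, RAPGEF1, PTPN12, PXN and AURKA, and up to 4 called genes per list and comparison by p. SH2D3A, PTPN1, PTPN11 and CSK complete short lists.

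Alternatives were RLE normalization, DESeq2 1.42.0, no expression filter, the replicate number as a block, GC and length offsets, only the 4 libraries compared, leaving out each library, and longest transcript length for shares. A library depth of 17822642 to 53279537 counts sets the precision of low genes. Paired libraries of static, low flow and high flow differed by a chi-square of 14.9, 32.0 and 12.9 for each degree of freedom, so none was a copy of another.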

Additional observations from a re-analysis of the deposited data

How the results depend on the processing

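The counts of calls among the 8 genes include NEDD9 and SH2D3C, whose calls are no test, and moved with the setting. Calls over all genes moved too, from 1394, 2878 and 69. Apart from leaving out single libraries, the alternatives gave 604 to 2260 in low flow against static and 2190 to 3968 in high flow against static. Between the flow rates they gave 36 to 241. Leaving out a library also moved the calls over all genes, so these swings are not particular to the genes followed. In low flow against static the count of 2 became 1 with DESeq2 (which gave SH2D3C no adjusted p), with the replicate block and with only the 4 libraries compared, and 0 to 1 on leaving out a library. In high flow against static the count of 2 became 1 with GC and length offsets, 4 with only the 4 libraries compared and 0 to 3 on leaving out a library. Between the flow rates the count of 0 became 1 with DESeq2, with no expression filter and with the replicate block, and 0 to 1 on leaving out a library. The 52 listed genes gave 1 to 8 calls in low flow against static and 2 to 19 in high flow against static on leaving out a library, against 6 and 15, and 8 with GC and length offsets in the latter. Between the flow rates the single call became 3 with DESeq2, 4 with no expression filter, 0 with the replicate block, with GC and length offsets and with only the 4 libraries compared, and 0 to 2 on leaving out a library. NEDD9 kept its direction under every alternative, with log2 fold changes of 1.28 to 1.91, 2.56 to 2.91 and 0.83 to 1.46 on leaving out a library. Since NEDD9 was picked for being higher under flow in these libraries, the kept direction is a description and no test.

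Directions turned where the log2 fold change was near 0 or the counts were low. With GC and length offsets low flow against static gave -0.0727 for BCAR1 and -0.00686 for CRKL, and high flow against low flow gave 0.0281 for CRK. With no expression filter CRK gave 0.00169 there. On leaving out a library, low flow against static ran from -0.00814 to 0.137 for BCAR1, from -1.36 to 0.195 for CASS4 and from -0.0699 to 0.0944 for CRKL. High flow against static ran from -0.0123 to 0.0993 for CRKL, and high flow against low flow from -0.0661 to 0.0594 for CRK and from -0.0538 to 0.111 for CRKL. None of these values passed the test. The cause was not tested.

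Deviations from the group mean of libraries with the same replicate number were correlated over 15524 genes. The values were -0.249 (static and low flow), -0.0116 (static and high flow) and 0.105 (low flow and high flow). With 2 libraries a group they cannot tell whether a shared number marks a shared culture or batch, and the labels name none. With the replicate block the listed genes gave 6 and 13 calls against static. Depth limits EFS, SH2D3C and CASS4, which had 45 counts or fewer in every library.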
